A study of Homo sapiens with 8 samples.

Results

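Overexpression of APOBEC3B (A3B) in MEL290 cells was examined by RNA-seq of 2 libraries labelled A3B OE and 2 libraries labelled NC, a negative control. All genes with at least 1 FPKM in at least 2 of these 4 libraries were taken, 11611 of the 19952 gene symbols listed. FPKM counts sequenced fragments scaled to transcript length and to library depth, so levels are per length and can be set beside each other between genes. The same study also sequenced 2 shCtrl and 2 shA3B libraries of the line 92.1, which are used below only to show where the MEL290 response differs.

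MEL290 and 92.1 are established uveal melanoma lines grown in RPMI1640 with serum. According to the study's methods, the A3B OE cells received a full-length human A3B coding sequence from a lentiviral vector with puromycin resistance, and infected cells were selected. What the NC cells carried, and whether the replicates were separate infections or separate cultures of 1 selected line, is not given in the sources used here. The p-values therefore measure only the spread between these libraries, which may be technical, and the A3B OE libraries stand for 1 construct in 1 cell line. No ATR or CHK1 inhibitor or other agent is named in the labels of these libraries.

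A3B is a nuclear cytidine deaminase that turns cytosine into uracil in single-stranded DNA. Uracil in DNA is removed by base excision repair, which opens the strand, and forks that meet such breaks or R-loops (an RNA strand paired with DNA, with the other DNA strand displaced) can stall. Stalled forks expose single-stranded DNA and activate the ATR and CHK1 kinases, while DNA breaks activate p53, which switches on the cell-cycle inhibitor p21 (CDKN1A). The genes of S phase and of mitosis are held down in resting or p53-arrested cells by the DREAM complex, which reads E2F sites and CHR elements in their promoters.

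APOBEC3B itself was at 2.67 and 2.19 FPKM in NC cells and rose to 28.4 and 27.5 FPKM on overexpression. Both A3B OE libraries lay far above both NC libraries and close to each other. The log2 fold change was 3.08 (SE 0.12, adjusted p = 0.00078, limma), on the log2(FPKM + 1) scale used throughout, which understates changes of genes with low FPKM. Fragments from the introduced copy and from the resident gene, on chromosome 22 of GRCh38 from 38982347 to 38992804, cannot be told apart. Of 10 APOBEC family genes listed, 3 passed the filter, and beside APOBEC3B these were APOBEC3C, with a log2 fold change of 0.23, and APOBEC3F, with -0.01, neither called. These genes are paralogs of APOBEC3B, and how shared reads were divided between them is not known.

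The labelled tissue was checked against melanocyte markers. MITF, the master regulator of the melanocyte lineage, was at 13.7 to 19.6 FPKM in the 4 libraries and PMEL, a melanosome protein, at 0.836 to 1.31 FPKM. The other 6 of 8 markers were under 1 FPKM in each library, and TYR, the pigment enzyme tyrosinase, was listed at 0 in all 4 and SOX10, a lineage factor, in 3 of 4, so most defining markers of the labelled lineage were at or near 0. Endothelial and erythroid markers stayed at or under 0.273 FPKM. Of 8 fibroblast markers COL1A1, PDPN and FAP were expressed, while DCN, LUM and TCF21 were at or under 0.153 FPKM. The summed level of the 8 was 72.8 to 74.7 FPKM in NC and 82.3 to 84.1 FPKM in A3B OE, but the members differed. PDPN went from 22.8 and 21.5 FPKM in NC to 15.4 and 18.2 FPKM in A3B OE. COL1A1 went from 26.9 and 27.5 FPKM to 40.7 and 29.0 FPKM, and FAP from 24.8 and 23.6 FPKM to 27.9 and 34.6 FPKM. CD68 and CSF1R alone of 8 hematopoietic markers reached 1 FPKM.

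Replicates were close. Across genes, log2(FPKM + 1) had a Pearson correlation of 0.9895 for the NC pair and of 0.9893 for the A3B OE pair, and 96 and 63 genes differed by more than 1 between replicates. A rough depth, read from where low FPKM values pile up, was 17.8 M and 20.4 M fragments in NC and 28.2 M and 22.4 M fragments in A3B OE, so depth was higher in both A3B OE libraries; its part in the results was not tested. Each value below rests on n = 2 per group, and an adjusted p is limma's, after Benjamini-Hochberg adjustment over all 11611 genes, with 0.05 as the threshold for a call.

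A3B OE changed many genes by small amounts. Calls were made for 2065 genes (17.8%), of which 1195 (10.3%) rose and 870 (7.49%) fell. The median absolute log2 fold change of called genes was 0.62, 225 rose by at least 1 and 89 fell by at least 1, and 14 moved by at least 2. The 2 groups of libraries did not overlap for 7115 genes (61.3%), which is the background for any such statement below. All 2065 called genes were among these, so a lack of overlap adds nothing to a call. A further 5 genes moved by at least 2 without being called. With A3B OE replicate 1 taken out 902 genes were called, and with the other A3B OE library out 774, the lone library being assumed to vary like the NC pair. The median over all genes tested was 0.0041. The shares of 10.3% higher and 7.49% lower stand as the background for the counts of each gene list below.

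Mitotic genes rose together. All 40 genes of a list of mitotic and G2/M genes passed the filter and all 40 were called higher, against 10.3% of all genes tested, with a median log2 fold change of 1.01. The smallest rise was that of ECT2, at 0.59, and the largest that of NUF2, at 1.45. The median FPKM of the 40 genes was 14.5 and 14.2 in the NC libraries and 28.4 and 29.1 in the A3B OE libraries. A bulk library cannot tell more cells in these phases from more RNA per cell.

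NUF2, a kinetochore protein that ties chromosomes to spindle microtubules, was at 6.49 and 6.35 FPKM in NC and 17.0 and 21.7 FPKM in A3B OE. MKI67, the proliferation antigen that coats mitotic chromosomes, was at 10.7 and 10.8 FPKM against 29.0 and 30.6 FPKM. For both genes the A3B OE libraries were above the NC libraries by more than either pair differed. Their log2 fold changes were 1.45 (SE 0.14, adjusted p = 0.0032, limma) and 1.39 (SE 0.09, adjusted p = 0.0016, limma). KIF20A, a kinesin of the central spindle, was at 17.4 and 14.1 FPKM in NC and 40.5 and 41.1 FPKM in A3B OE, a log2 fold change of 1.33. CDC25B, the phosphatase that starts mitosis by activating CDK1, was at 8.7 and 8.85 FPKM in NC and 21.5 and 23.1 FPKM in A3B OE, a log2 fold change of 1.25.

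The rise covered each step of division. Among the kinases and cyclins that drive entry, CCNB1 rose by 1.03, CCNA2 by 1.06, PLK1 by 0.94, AURKB by 1.17 and CDK1 by 0.71. Kinetochore and checkpoint genes rose as well, with 1.20 for SPC25, 1.08 for MAD2L1, 0.94 for BUB1B and 0.65 for TTK. CDC20, the activator of the anaphase-promoting complex, was at 41.4 and 37.0 FPKM in NC and 86.4 and 78.5 FPKM in A3B OE. The motor and cytokinesis genes KIF11, PRC1 and ANLN had log2 fold changes of 1.18, 1.06 and 0.99. FOXM1, the transcription factor that binds these promoters together with MYB-MuvB, rose by 0.89. Between 30 and 40 of the 40 genes stayed called over the alternatives run, the lowest number without a filter on low FPKM, and 34 and 32 stayed called with the first or the second A3B OE library left out. MKI67 was not called when all 8 libraries shared 1 fit (adjusted p = 0.10, limma).

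Promoters of mitotic genes often carry the CHR element, TTTGAA, through which DREAM and MYB-MuvB act. In RefSeq promoter windows of GRCh38.p14, 250 bases before to 50 bases after the start, 34 of the 40 genes had an entry. TTTGAA stood on either strand in 24 of these 34 windows (70.6%), against 12.1% of all 15085 windows and 9.41% of those of genes tested here. The windows of the 3 called genes of largest rise that hold the element are shown. Each reads 5′ to 3′ on the gene's strand, with TTTGAA in capitals.
NUF2, chr1:163321704-163322003, plus strand: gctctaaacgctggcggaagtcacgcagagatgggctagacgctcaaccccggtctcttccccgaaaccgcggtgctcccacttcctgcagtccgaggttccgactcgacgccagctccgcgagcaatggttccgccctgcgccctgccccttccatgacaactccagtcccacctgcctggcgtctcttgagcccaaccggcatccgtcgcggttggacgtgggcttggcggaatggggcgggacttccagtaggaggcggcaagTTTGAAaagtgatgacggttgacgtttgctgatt
MKI67, chr10:128126374-128126673, minus strand: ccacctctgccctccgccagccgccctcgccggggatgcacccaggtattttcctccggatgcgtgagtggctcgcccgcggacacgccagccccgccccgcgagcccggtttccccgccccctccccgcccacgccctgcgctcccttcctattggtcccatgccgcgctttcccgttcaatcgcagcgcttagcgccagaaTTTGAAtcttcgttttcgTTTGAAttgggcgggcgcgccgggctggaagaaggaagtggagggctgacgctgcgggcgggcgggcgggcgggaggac
NUSAP1, chr15:41332631-41332930, plus strand: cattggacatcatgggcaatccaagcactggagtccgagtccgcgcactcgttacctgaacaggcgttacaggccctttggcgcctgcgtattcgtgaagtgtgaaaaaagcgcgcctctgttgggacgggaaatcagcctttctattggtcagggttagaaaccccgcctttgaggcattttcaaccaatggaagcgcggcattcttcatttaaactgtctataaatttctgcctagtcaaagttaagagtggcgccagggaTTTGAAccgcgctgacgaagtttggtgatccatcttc
In NUF2 and NUSAP1 the element begins at bases 17 and 14 of the transcript, and MKI67 has a pair, which begin 47 and 29 bases before the start. NUSAP1, which bundles spindle microtubules, was at 30.2 and 33.9 FPKM in NC and 78.0 and 72.8 FPKM in A3B OE, a log2 fold change of 1.21. A match of these letters is a description and not evidence of binding.

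DNA replication genes rose in part. All 48 listed genes passed the filter, 29 were called higher and 0 lower (10.3% and 7.49% of all genes), and 45 of 48 had a value above 0, with a median log2 fold change of 0.60. The 19 others had no call at an adjusted p under 0.05, and some of them, such as POLA2 at 0.81, had fold changes as large as called genes. The number called was 11 without A3B OE replicate 1, 16 without the other A3B OE library and 10 without the filter on low FPKM. The median stayed between 0.53 and 0.65 in every alternative run.

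The steps of replication differed in how many members passed. All 6 subunits of the MCM helicase that unwinds DNA, MCM2 to MCM7, were called, with log2 fold changes of 0.56 to 0.96. MCM2 was at 11.2 and 10.7 FPKM in NC and 22.9 and 21.8 FPKM in A3B OE. CDC45, which joins MCM and GINS to form the moving helicase, was at 7.32 and 5.95 FPKM in NC and 11.3 and 12.2 FPKM in A3B OE. Both A3B OE libraries exceeded both NC libraries, and the log2 fold change of CDC45 was 0.75 (SE 0.13, adjusted p = 0.016, limma). It was no longer called without A3B OE replicate 1 or 2.

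Of the 6 origin recognition subunits only ORC1 was called, at 1.46 and 1.61 FPKM in NC and 3.70 and 3.61 FPKM in A3B OE. The other 5 ranged from -0.05 for ORC3 to 0.31 for ORC6. None of the 3 RPA subunits, which coat single-stranded DNA, was called, although RPA3 had a log2 fold change of 0.65. All 5 enzymes of nucleotide synthesis were called. RRM2, the regulated subunit of ribonucleotide reductase, was at 62.7 and 52.3 FPKM in NC and 129 and 114 FPKM in A3B OE, and its log2 fold change of 1.07 was the largest in the list. TK1, thymidine kinase, rose by 0.92 and TYMS, thymidylate synthase, by 0.62. GMNN, the licensing inhibitor geminin, was at 9.71 and 12.5 FPKM in NC and 24.6 and 22.5 FPKM in A3B OE. POLD1, the catalytic subunit of polymerase delta, rose by 0.99 and PCNA, the sliding clamp, by 0.41.

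E2F sites were searched as TTTCCCGC or TTTGGCGC in the same windows, on both strands. They stood in 16 of the 41 replication genes with an entry (39.0%), in 11 of the 26 called ones, and in 3.08% of all windows. Listed genes that were not called also held sites, and the part of the sites in the rise was not tested. The 3 called genes of largest rise with a site are MCM3, LIG1 (the ligase that joins Okazaki fragments) and POLA1 (the catalytic subunit of polymerase alpha), shown with the site in capitals.
MCM3, chr6:52284693-52284992, minus strand: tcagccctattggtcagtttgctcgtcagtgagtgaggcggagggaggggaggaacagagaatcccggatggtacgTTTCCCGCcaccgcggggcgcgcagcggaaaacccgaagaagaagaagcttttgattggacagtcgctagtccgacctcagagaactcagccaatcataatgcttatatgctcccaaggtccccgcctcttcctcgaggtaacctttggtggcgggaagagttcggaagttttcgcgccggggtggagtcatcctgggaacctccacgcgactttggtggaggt
LIG1, chr19:48170295-48170594, minus strand: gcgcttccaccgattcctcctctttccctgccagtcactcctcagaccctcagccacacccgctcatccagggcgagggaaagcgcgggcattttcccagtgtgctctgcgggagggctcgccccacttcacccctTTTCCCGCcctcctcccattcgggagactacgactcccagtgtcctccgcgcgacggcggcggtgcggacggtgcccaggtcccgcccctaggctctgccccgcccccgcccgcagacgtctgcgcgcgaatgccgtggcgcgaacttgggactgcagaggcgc
POLA1, chrX:24693668-24693967, plus strand: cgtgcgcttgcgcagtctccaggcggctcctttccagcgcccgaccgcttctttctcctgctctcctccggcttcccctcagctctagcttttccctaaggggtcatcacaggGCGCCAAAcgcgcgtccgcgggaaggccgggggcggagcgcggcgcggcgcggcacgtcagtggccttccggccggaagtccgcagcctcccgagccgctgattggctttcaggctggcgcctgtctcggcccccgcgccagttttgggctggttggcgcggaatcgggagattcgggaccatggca
The sites begin 174, 114 and 137 bases before the start. The 3 genes had log2 fold changes of 0.92, 0.87 and 0.85.

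Checkpoint and repair genes were called in part. Of 14 genes of the ATR-CHK1 checkpoint 4 (28.6%) were called, all higher, against 10.3% of all genes, with a median log2 fold change of 0.36 over the 14. WEE1, the kinase that holds back CDK1, was at 8.91 and 9.72 FPKM in NC and 19.1 and 18.3 FPKM in A3B OE. CHEK1 itself was at 12.8 and 14.3 FPKM in NC and 18.2 and 19.9 FPKM in A3B OE, a log2 fold change of 0.46 with an adjusted p of 0.035 from limma. The call on CHEK1 was lost in a joint fit of the 8 libraries, without the filter, and without NC replicate 1 or either A3B OE library. ATR and ATRIP, the kinase and its partner, had values of -0.04 and -0.21 with no call. CLSPN, which brings CHK1 to ATR, rose by 0.71 and TIMELESS, of the fork protection complex, by 0.56. WEE1 alone of the 14 stayed called when either A3B OE library was left out.

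Homologous recombination and Fanconi anemia genes had 13 of 28 (46.4%) called, all higher, against 10.3% of all genes, and a median of 0.63. FANCI, a subunit of the clamp that marks crosslinked DNA, was at 12.6 and 13.0 FPKM in NC and 25.2 and 32.9 FPKM in A3B OE. BRCA1 was at 7.64 and 5.98 FPKM in NC and 15.5 and 13.0 FPKM in A3B OE. The MRE11, RAD50 and NBN genes of the break-sensing complex had values of -0.07, 0.04 and 0.33 with no call. The count was 1 without A3B OE replicate 1, 2 when the other A3B OE library was dropped and 3 without the filter, while the median stayed between 0.42 and 0.65 in the fits without a library.

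Base excision repair, which acts on the uracil that A3B makes, had more genes called higher than lower. UNG, the main uracil glycosylase, was at 19.7 and 18.0 FPKM in NC and 27.1 and 24.0 FPKM in A3B OE, a log2 fold change of 0.42. XRCC1 and PARP1, which organise repair of the opened strand, rose by 0.70 and 0.63, and NEIL3 by 0.97. TDG, a glycosylase for thymine and uracil opposite guanine, was at 17.4 and 19 FPKM in NC and 11.6 and 13.2 FPKM in A3B OE and fell by 0.52. In all, 6 of 18 genes (33.3%) were called higher and 2 (11.1%) lower, TDG and NEIL2, against 10.3% and 7.49% of all genes. The share that fell was near the background. Leaving out either A3B OE library left 2 called higher and 0 lower.

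Among 17 R-loop resolving factors 5 (29.4%) were called higher and 1 (5.88%) lower, against 10.3% and 7.49% of all genes, with a median of 0.17, so the share that fell was no larger than the background. The gene that fell was RNASEH1, whose enzyme cuts the RNA of an R-loop. It was at 18.5 and 17.4 FPKM in NC and at 12.4 and 13.6 FPKM in A3B OE, with no overlap between the groups, as for every called gene. The log2 fold change was -0.43 (SE 0.10, adjusted p = 0.037, limma). This call was not kept with any 1 library left out, where the adjusted p was 0.12 without NC replicate 1, 0.053 without NC replicate 2, 0.13 and 0.084 without A3B OE replicates 1 and 2, nor with the replicate number as a block, where it was 0.067, nor without the filter, where it was 0.078 and no R-loop factor was called. Genes of the other RNase H enzyme went the opposite way or had no call. RNASEH2A, its catalytic subunit, was at 11.8 and 9.26 FPKM in NC and 19.9 and 17.1 FPKM in A3B OE, RNASEH2B rose by 0.49, and RNASEH2C had -0.09 with no call. The helicase AQR had a value of -0.03 with no call. With the replicate block, 1 of the 17 factors was called higher and 0 lower, without A3B OE replicate 1 the numbers were 0 and 0, and without the other A3B OE library 1 and 0.

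**Figure D1:**
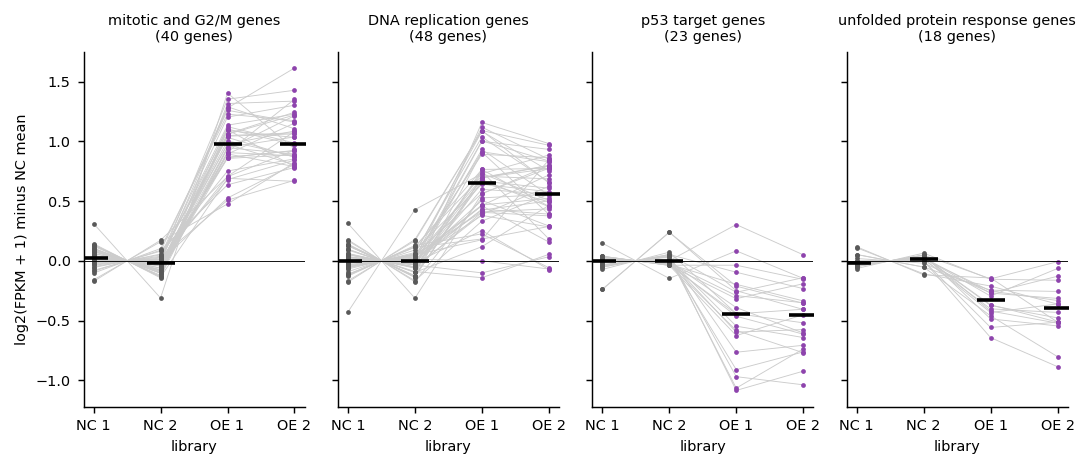
Log2(FPKM + 1) of each tested member of 4 gene lists minus its mean over the NC libraries (vertical axis), in each of the 4 libraries (horizontal axis). Thin lines join the values of 1 gene and thick bars are medians; the mitotic genes lie above 0 and the unfolded protein response genes below 0 in both A3B OE libraries.

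Targets of p53 fell while the proliferation genes rose. Of 25 listed targets 23 passed the filter, and 13 of these were called lower and 0 higher (7.49% and 10.3% of all genes), with a median of -0.48. The 2 that did not pass were at or under 0.193 FPKM. CDKN1A, which encodes the cyclin-dependent kinase inhibitor p21, was at 371 and 391 FPKM in NC and at 194 and 185 FPKM in A3B OE. The A3B OE libraries were separate from the NC libraries and the pairs were tight, with a log2 fold change of -1.0 (SE 0.07, adjusted p = 0.0016, limma). MDM2, the ligase that degrades p53 and a p53 target itself, was at 68.1 and 64.5 FPKM in NC and 42.6 and 48.2 FPKM in A3B OE.

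TP53INP1, ZMAT3 and BTG2, which act in growth arrest, had the next largest falls. TP53INP1 was at 25.1 and 26.8 FPKM in NC and 11.7 and 13.2 FPKM in A3B OE, a log2 fold change of -1.0. ZMAT3 was at 28.7 and 30.0 FPKM in NC and 13.5 and 17.2 FPKM in A3B OE, a log2 fold change of -0.90, and BTG2 had -0.84. Of the death genes, FAS fell by 0.60 and TNFRSF10B by 0.32, and BBC3 and BAX had -0.33 and 0.18 with no call. RRM2B, the ribonucleotide reductase subunit that p53 induces, fell by 0.74, in contrast to RRM2. Of the 23 genes 22 had a value below 0, BAX being the exception. Between 7 and 16 were called lower over the alternatives, with 10 and 8 when the first or the second A3B OE library was left out, and 0 were called higher in any of them.

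Genes of the unfolded protein response, which restores folding capacity in the endoplasmic reticulum, had lower values throughout. All 18 listed genes passed the filter, 11 were called lower and 0 higher (7.49% and 10.3% of all genes), and all 18 values were below 0, with a median of -0.36. HSPA5, the chaperone BiP, was at 704 and 716 FPKM in NC and at 537 and 526 FPKM in A3B OE, a log2 fold change of -0.42 (SE 0.06, adjusted p = 0.0077, limma). HSP90B1, its partner chaperone, was at 1560 and 1600 FPKM in NC and at 1170 and 1230 FPKM in A3B OE. For both the A3B OE libraries lay below the NC libraries with no overlap, and 61.3% of all genes had none. CRELD2, a secreted stress marker, had the largest fall, from 92.7 FPKM in each NC library to 59.0 and 49.7 FPKM, a log2 fold change of -0.76. SDF2L1 had -0.63 and the co-chaperones DNAJC3 and DNAJB11 had -0.54 and -0.52. XBP1, the transcription factor of this response, had -0.29 with no call. The number called lower was 4 when A3B OE replicate 2 was left out, 6 without the filter and 14 with the replicate block and the GC and length correction together. PDIA3, a disulfide isomerase counted among the antigen presentation genes, was at 549 and 513 FPKM in NC and 397 and 392 FPKM in A3B OE.

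Cholesterol synthesis genes fell in part. Of 24 listed genes 23 passed the filter, 8 were called lower and 1 higher (7.49% and 10.3% of all genes), and 20 had values below 0, with a median of -0.29. HMGCS1, which makes the precursor of mevalonate, was at 55.0 and 52.4 FPKM in NC and at 27.1 and 30.9 FPKM in A3B OE, a log2 fold change of -0.87 (SE 0.09, adjusted p = 0.0041, limma). DHCR7, which makes cholesterol in the last step, was at 39.9 and 38.9 FPKM in NC and at 25.7 and 20.5 FPKM in A3B OE. IDI1, an isomerase of the early pathway, fell by 0.57. EBP, a sterol isomerase, went the other way, at 20.3 and 19.5 FPKM in NC and 30.4 and 29.2 FPKM in A3B OE. With either A3B OE library left out, 5 genes were called lower and 0 higher, EBP included among those lost.

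Some genes induced by low oxygen rose. Of 25 listed genes 24 were found, VEGFA having no value under that name, and 22 passed the filter. Of these 11 (50.0%) were called higher, 1 lower and 10 not called, against 10.3% higher among all genes, with a median of 0.38. CA9, a membrane carbonic anhydrase, was at 30.1 and 38.7 FPKM in NC and at 87.9 and 86.5 FPKM in A3B OE, a log2 fold change of 1.33 (SE 0.12, adjusted p = 0.003, limma). SLC2A1, the glucose transporter GLUT1, was at 211 and 231 FPKM in NC and 380 and 340 FPKM in A3B OE. NDRG1, a stress-responsive gene, had the largest rise of the list at 2.07, from 17.6 and 22.1 FPKM to 101 and 72.4 FPKM. The groups did not overlap for any of these 3 genes, as for 61.3% of all genes. Glycolytic genes of the list rose by less, with 0.40 for LDHA, 0.46 for ENO1, 0.37 for PGK1 and 0.50 for HK2, while ALDOC, at 0.632 and 0.395 FPKM in NC, reached 4.73 and 4.11 FPKM. ALDOC passed the filter through the A3B OE libraries alone, which fixed its direction. LOX, a collagen cross-linking enzyme, fell by 0.48. Not called were the HIF feedback gene EGLN1 at -0.07, PDK1 at -0.22 and ADM at 0.23. Over the alternatives 6 to 12 genes were called higher, 6 without the filter.

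Transcripts of matrix proteins and their receptors moved both ways. Of 46 listed collagen, laminin and matrix genes 33 passed the filter, 11 were called higher and 5 lower (10.3% and 7.49% of all genes), and the median was 0.08. LAMB3, a laminin chain of epithelial basement membranes, was at 30.2 and 27.6 FPKM in NC and 12.1 and 13.2 FPKM in A3B OE, a log2 fold change of -1.13. The laminin chains LAMA4 and LAMB1 rose, by 0.71 and 0.55. TIMP3, a metalloproteinase inhibitor, was at 12.5 and 12.7 FPKM in NC and 27.3 and 28.3 FPKM in A3B OE, and the collagens COL8A1, COL11A1 and COL13A1 rose by 0.75, 0.79 and 1.00. With all 8 libraries in 1 fit, 6 genes were called higher and 4 lower.

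Of 30 integrin and cadherin genes 18 passed the filter, 8 were called higher and 0 lower, against 10.3% and 7.49% of all genes. ITGB3, the beta chain of the vitronectin receptor, was at 0.221 and 0.287 FPKM in NC and 2.37 and 2.57 FPKM in A3B OE, and ITGA3, a laminin-binding chain, was at 260 and 252 FPKM against 416 and 414 FPKM. ITGB3 passed the filter through the A3B OE libraries alone, which fixed its direction. CDH11, a mesenchymal cadherin, rose by 0.72 and ITGA1, a collagen receptor chain, by 0.82. With either A3B OE library left out the number called was 4, and ITGA1 was not among them.

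Receptor tyrosine kinases split within 1 family. AXL and its ligand GAS6 both rose. AXL was at 191 and 198 FPKM in NC and 427 and 392 FPKM in A3B OE, a log2 fold change of 1.07 (SE 0.07, adjusted p = 0.0016, limma). GAS6 was at 77.7 and 75.6 FPKM in NC and 172 and 160 FPKM in A3B OE, a log2 fold change of 1.11. TYRO3, a second receptor for GAS6, fell, from 32.1 and 26.5 FPKM to 11.9 and 12 FPKM, a log2 fold change of -1.22. The receptors for WNT5A, ROR2 and ROR1, rose by 0.86 and 0.63. Over all genes the shares called were 10.3% higher and 7.49% lower. In all, 18 of 30 listed receptors passed the filter, with 5 called higher and 3 lower, and 1 in each direction, AXL and TYRO3, with either A3B OE library left out.

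Some inflammatory and interferon genes were called, more of them higher than lower. Of 28 cytokine and NF-kB response genes 15 passed the filter, and 4 (26.7%) were called higher and 2 (13.3%) lower. The shares over all genes were 10.3% and 7.49%. CCL2, the monocyte chemoattractant, was at 5.41 and 4.88 FPKM in NC and 0.326 and 0.099 FPKM in A3B OE, a log2 fold change of -2.35 (SE 0.16, adjusted p = 0.0017, limma). CCL2 passed the filter through the NC libraries alone, which fixed its direction. CSF1, which sustains macrophages, was at 3.02 and 3.39 FPKM in NC and 12.2 and 12.1 FPKM in A3B OE, a log2 fold change of 1.64. IL6 was at 2.68 and 2.65 FPKM in NC and 8.05 and 5.82 FPKM in A3B OE, whereas IL11, of the same cytokine family, fell by 1.09. CXCL8 had 0.39 with no call. Quantile normalization gave 2 called higher and 3 lower, and the replicate block or the loss of either A3B OE library 2 and 2. IL6 was not called without A3B OE replicate 1.

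Of 36 interferon-stimulated genes 23 passed the filter, 6 (26.1%) were called higher and 1 (4.35%) lower, with a median of 0.18. Over all genes the shares were 10.3% and 7.49%, so the share that fell was below the background. IRF1, a transcription factor that interferon induces, was at 3.22 and 2.67 FPKM in NC and 8.88 and 8.4 FPKM in A3B OE, a log2 fold change of 1.29 (SE 0.14, adjusted p = 0.0037, limma). OAS3, a sensor of double-stranded RNA, rose by 1.18, IFIT3 by 0.96 and IFI44 by 0.71. ISG15, a ubiquitin-like protein, fell by 0.54, from 33.8 and 34.3 FPKM to 23.5 and 22.8 FPKM. The interferon response element (ISRE) stood in 17 of the 28 genes of the list with a promoter window (60.7%), against 3.22% of all windows, and in 5 of the 6 called genes with a window. Listed genes that were not called or not tested also held the element. The 3 called genes of largest change that hold it are shown, with the element in capitals.
OAS3, chr12:112938224-112938523, plus strand: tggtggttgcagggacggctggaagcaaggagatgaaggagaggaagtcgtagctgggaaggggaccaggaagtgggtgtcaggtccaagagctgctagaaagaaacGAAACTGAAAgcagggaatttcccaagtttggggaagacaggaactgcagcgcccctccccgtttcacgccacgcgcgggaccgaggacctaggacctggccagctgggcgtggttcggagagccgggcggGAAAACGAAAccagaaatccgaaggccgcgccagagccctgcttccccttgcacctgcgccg
IFIT3, chr10:89327747-89328046, plus strand: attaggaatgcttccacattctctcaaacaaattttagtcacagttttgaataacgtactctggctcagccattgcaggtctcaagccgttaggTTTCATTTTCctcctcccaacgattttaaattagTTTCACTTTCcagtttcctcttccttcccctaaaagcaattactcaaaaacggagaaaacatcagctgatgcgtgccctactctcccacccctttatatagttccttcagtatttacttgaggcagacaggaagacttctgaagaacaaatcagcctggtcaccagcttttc
IFI44, chr1:78649539-78649838, plus strand: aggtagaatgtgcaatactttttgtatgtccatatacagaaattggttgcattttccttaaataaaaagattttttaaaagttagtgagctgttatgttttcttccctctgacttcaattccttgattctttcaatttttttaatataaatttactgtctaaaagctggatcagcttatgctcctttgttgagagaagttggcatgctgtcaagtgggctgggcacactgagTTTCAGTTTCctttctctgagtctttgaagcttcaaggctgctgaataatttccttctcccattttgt
OAS3 was at 3.91 and 2.23 FPKM in NC and 8.24 and 7.76 FPKM in A3B OE. Of the genes named here, OAS3 and IFI44 lost their call without either A3B OE library and IFIT3 and ISG15 without replicate 2, where 2 genes (without replicate 1) and 1 gene (without replicate 2) of the list were called higher. Among 17 antigen presentation genes 3 (17.6%) were called higher, HLA-F, NLRC5 and ERAP2, by 0.68, 0.58 and 0.47, and 2 (11.8%) lower, PDIA3 and CALR, against 10.3% and 7.49% of all genes. The number higher was 1 and 0 when the first or the second A3B OE library was left out. HLA-B, HLA-C and B2M had 0.24, 0.03 and 0.14 with no call.

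The largest single changes were spread over many functions. The genes named come from the 12 that rose most and the 12 that fell most among those called without overlap, where the 4 libraries averaged 4 FPKM or more, 11 on each side being reported here. MGMT, which removes alkyl groups from guanine, was at 0.392 and 0.787 FPKM in NC and 18.7 and 19.9 FPKM in A3B OE. It passed the filter through the A3B OE libraries alone, which fixed its direction. Its log2 fold change of 3.68 (SE 0.16, adjusted p = 0.00078, limma) exceeded that of APOBEC3B. IL7R, the interleukin receptor, was at 2.51 and 1.87 FPKM against 17.0 and 18.0 FPKM. GSTM2, a glutathione transferase, and CLDN11, a tight junction protein, rose by 2.42 and 2.07. C1R, a complement protease, rose by 1.94, GLUL, glutamine synthetase, by 1.94, CAV1, of caveolae, by 1.93 and TNNT1, a troponin of slow muscle, by 1.92. CPM, a carboxypeptidase, was at 0.715 and 1.22 FPKM in NC but at 8.25 and 32.4 FPKM in A3B OE, so its A3B OE libraries differed widely. The log2 fold change of CPM was 3.17 (adjusted p = 0.015, limma), 4.1 without A3B OE replicate 1 and 2.25 when the other was dropped, called in both cases but not without the filter.

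On the falling side, 3 keratin-related genes of chromosome 17 stood together. KRTAP2-3, KRT34 and KRT16 lie between 41059240 and 41615899 of GRCh38 (GENCODE 44). KRTAP2-3, a hair keratin-associated protein, was at 309 and 286 FPKM in NC and 66.8 and 56.7 FPKM in A3B OE, a log2 fold change of -2.25 (SE 0.10, adjusted p = 0.00078, limma). KRT16, an epithelial stress keratin, was at 29.3 and 27.7 FPKM against 6.03 and 6.01 FPKM, and KRT34, a hair keratin, at 111 and 99.4 FPKM against 33.0 and 28.9 FPKM. Of 8 epithelial markers, 3 reached 1 FPKM in any library, and KRT5 and ESRP1 were listed at 0 in all 4 libraries. The sum over the 8 was 7.48 and 7.25 FPKM in NC and 4.28 and 5.35 FPKM in A3B OE. KRT14 (1.98 and 2.36 against 0.412 and 0.545 FPKM) and CLDN4 (5.13 and 4.29 against 2.74 and 1.84 FPKM) were lower. ELF3 was higher (0.187 and 0.188 against 0.746 and 0.758 FPKM). CDH1 reached 2.14 FPKM in A3B OE replicate 2, against 0.18 to 0.393 FPKM in the other libraries. The part of these markers in the fall of the keratins was not tested.

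Signalling genes were among the falls too. TGFB2, a ligand of the TGF-beta receptors, was at 52.3 and 47.3 FPKM in NC and 14.4 and 15.4 FPKM in A3B OE, a log2 fold change of -1.68. NRG1, a ligand of the ERBB receptors, was at 33.8 and 37.4 FPKM against 9.39 and 9.15 FPKM, and ADGRG1, an adhesion receptor coupled to G proteins, fell by 1.92. ALPK2, an atypical kinase, was at 12.4 and 12.6 FPKM in NC and 1.47 and 1.70 FPKM in A3B OE. CYBA, a subunit of NADPH oxidase, fell by 1.75 and ACTC1, cardiac actin, by 1.70. C4orf48 had the most negative value of these genes, -2.39, but its A3B OE libraries, at 28.5 and 69.2 FPKM, differed from each other. The value of C4orf48 was -1.76 when A3B OE replicate 1 was dropped and -3.01 when the other was, called in both cases but not without the filter.

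**Figure D2:**
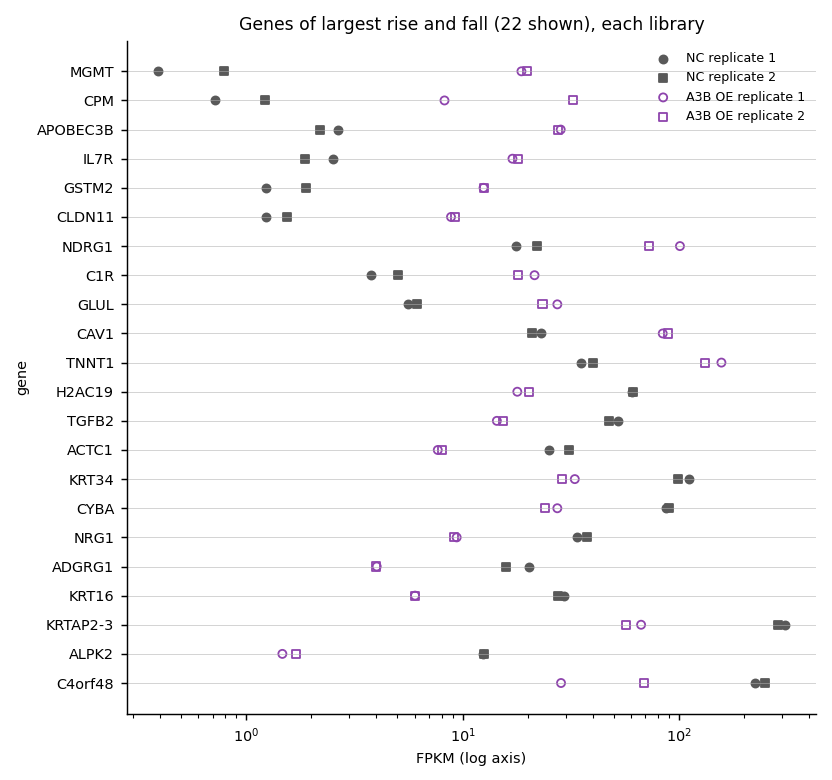
FPKM (logarithmic horizontal axis) of 11 of the 12 genes with the largest rises and 11 of the 12 with the largest falls (vertical axis) in each library; filled grey symbols are NC and open purple symbols A3B OE, circles replicate 1 and squares replicate 2. The groups do not overlap for any of the 22 by the rule that chose them, and CPM and C4orf48 have A3B OE replicates far apart, at 8.25 and 32.4 and at 28.5 and 69.2 FPKM.

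Some of the most abundant transcripts moved as well. TMSB4X, an actin-binding peptide, went from 1240 and 1340 FPKM to 3750 and 3490 FPKM, a log2 fold change of 1.49 (SE 0.07, adjusted p = 0.00078, limma). CYP24A1, the enzyme that inactivates vitamin D, went from 507 and 525 FPKM to 204 and 210 FPKM, a log2 fold change of -1.31. FTH1, the ferritin heavy chain, was at 1420 and 1350 FPKM in NC and 2740 and 2640 FPKM in A3B OE. CGB8, a chorionic gonadotropin beta gene with near-identical copies among which reads may have been divided, was at 270 and 279 FPKM against 136 and 111 FPKM.

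Clustered histone genes, which are made in S phase, had lower values, while replication genes had higher ones. Of 32 listed genes 28 were found and 12 passed the filter. Of these 7 were called lower and 0 higher (7.49% and 10.3% of all genes), and all 12 had values below 0, with a median of -0.66. H2AC19 was at 60.8 and 61.1 FPKM in NC and 17.9 and 20.2 FPKM in A3B OE, a log2 fold change of -1.63 (SE 0.09, adjusted p = 0.0011, limma). H2AC18, a near-identical copy of H2AC19, had almost the same values, and reads may have been shared between them. H2BC5 and H2BC12 fell by 1.16 and 1.12. Most mRNAs of these genes end in a stem-loop in place of a poly(A) tail. Whether RNA was selected by its poly(A) tail is not given, and whether these values follow S phase was not tested. Without NC replicate 1, 1 gene of the list was called higher, and 4 were called lower when A3B OE replicate 2 was left out.

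Of 79 cytosolic ribosomal protein genes 1 was called higher, RPS16, by 0.48, and 1 lower, RPL4, by 0.23, against 10.3% and 7.49% of all genes, and the median was -0.03. The ribosomal numbers rose to 6 higher and 9 lower under quantile normalization and to 9 higher and 5 lower with the GC and length trends removed, and without A3B OE replicate 2 they were 4 and 2. Of 77 oxidative phosphorylation genes 0 were called higher and 7 (9.09%) lower, near the share over all genes, with a median of -0.09. ATP5F1D, a subunit of ATP synthase, was at 81.3 and 86.9 FPKM in NC and 53 and 51.2 FPKM in A3B OE. NDUFB1, of complex I, fell by 0.63. Over the alternatives between 2 and 10 of these 77 genes were called lower, 2 without A3B OE replicate 2.

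Position along the chromosomes was described in windows of 10 Mb with at least 20 tested genes, 219 in all. In 192 windows the median log2 fold change lay within 0.1 of 0. The highest medians were on the long arm of chromosome 19, with 0.29 over 202 genes from 40000001 to 50000000 and 0.24 over 111 genes from 30000001 to 40000000, and on chromosome 9 from 80000001 to 90000000, with 0.24 over 21 genes. The next window of chromosome 19, from 50000001 to 60000000, had 0.20 over 130 genes. These windows were looked at more closely after their values were seen. In the 3 windows of chromosome 19, 106 of 443 genes were called higher and 17 lower, against 10.3% and 7.49% of all genes tested. Genes named here that lie in them include AXL, POLD1, LIG1, FBL, XRCC1, TNNT1, RPS16, DBP, ZNF569 and FBXO27, called higher, and IL11, CGB8 and CGB7, called lower. Of the ribosomal protein genes, the 8 inside these windows all had values above 0, with a median of 0.23, and the 71 outside had a median of -0.05.

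With each library left out in turn the median of the 40000001 window of chromosome 19 was 0.23 to 0.33 and that of the 30000001 window 0.21 to 0.24, and once a dependence on GC and length had been taken out they were 0.27 and 0.20. The window of chromosome 9 was less stable, with 0.12 to 0.22 when a library was left out and 0.15 after quantile normalization. None of the 40 mitotic and 18 unfolded protein response genes lay in the 3 windows of chromosome 19. The lowest medians were -0.14 on chromosome 20 from 50000001 to 60000000, which holds CYP24A1 and APCDD1L, -0.14 on chromosome 5 from 110000001 to 120000000, which holds APC and TNFAIP8, and -0.13 on chromosome 11 from 30000001 to 40000000. PAX6, the eye development factor, lies in the last of these and was at 54.9 and 58.6 FPKM in NC and 33.0 and 31.9 FPKM in A3B OE, and CD59, an inhibitor of complement, fell by 0.62.

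The response of MEL290 was set beside that of 92.1, where A3B was lowered. APOBEC3B was at 35.9 and 32.3 FPKM in shCtrl and 1.98 and 2.37 FPKM in shA3B libraries of 92.1, so the A3B-high cells of the 2 lines, A3B OE and shCtrl, were at 27.5 to 35.9 FPKM. In 92.1, 1 gene of 11605, APOBEC3B, was called (336 at an unadjusted p under 0.05). With another test, Cuffdiff, the study itself reported more differentially expressed genes on A3B depletion in this line. The single call here thus does not show that 92.1 did not respond. The difference between A3B-high minus A3B-low in MEL290 and in 92.1 was tested in 1 limma fit over the 8 libraries. It passed for 707 of 12697 genes (5.57%), 456 with the higher value in MEL290 and 251 with the lower. The line, the construct and the direction of the A3B change cannot be told apart in this design.

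Among the lists, the mitotic genes had the largest share that differed between the lines. The test uses again the MEL290 libraries in which these lists were already described, so the counts are a description. Of the 40, 34 passed the test with a higher value in MEL290 and 0 with a lower one, against 5.57% of all genes, and the median difference was 1.09. In 92.1 the median for shA3B minus shCtrl was 0.13, and 0 of the 39 tested were called. Of 48 replication genes 15 differed, all higher in MEL290, and of 28 homologous recombination genes 6 did. Of 24 p53 targets 2 differed and of 18 unfolded protein response genes 1, so most of the falls of these lists in MEL290 were not shown to differ from 92.1, although their medians in 92.1 were 0.02 and 0.03. Among hypoxia-responsive genes 5 of 23 differed.

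**Figure D3:**
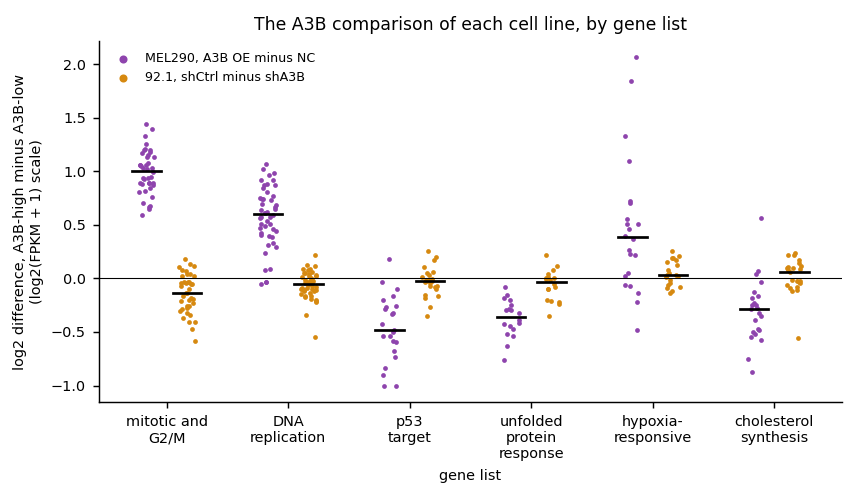
Log2 difference between A3B-high and A3B-low cells (vertical axis, log2(FPKM + 1) scale) of the members of 6 gene lists (horizontal axis), in MEL290 as A3B OE minus NC (purple) and in 92.1 as shCtrl minus shA3B (orange), with medians as black bars. In MEL290 the mitotic genes lie between 0.59 and 1.45, while in 92.1 each list has a median near 0.

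The genes with the largest changes in MEL290 often had little or no expression in 92.1. IL7R, KRTAP2-3, KRT16 and KRT34 were listed at 0 in all 4 libraries of 92.1, and CLDN11, ALPK2 and ACTC1 were at or under 0.066 FPKM. MGMT, in contrast, was at 17.8 to 23.7 FPKM in the 92.1 libraries, about the level of A3B OE cells of MEL290, and was not called there (log2 fold change 0.01 for shA3B over shCtrl). GLUL was at 56.0 to 67.8 FPKM in 92.1, above its level in A3B OE cells.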

How the data were processed

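RNA-seq was performed by the study on Trizol-extracted RNA of MEL290 (NC and A3B OE) and 92.1 (shCtrl and shA3B) cells, 2 libraries each. The authors aligned paired reads with STAR to GRCh38 and had Cufflinks compute FPKM per gene of the Ensembl release that the methods name, and the FPKM values were deposited as 1 file per library, whose symbols include newer names such as WARS1. Tool versions, strand handling and treatment of multi-mapping reads are not given in the sources used here. FPKM keeps no read counts, so a rough depth was read from the most common value of 1 read among low genes, near which only 15.4% to 25.3% of genes lay in MEL290, and it has no interval.

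Genes that reached 1 FPKM in 2 or more of the 4 MEL290 libraries were tested with limma 3.58.1 (R 4.3.3) on log2(FPKM + 1), with an intensity trend and Benjamini-Hochberg adjustment, threshold 0.05. Genes under 1 FPKM in both libraries of 1 group passed only through the other group, so the filter fixed their direction. Examples are MGMT, ITGB3, ALDOC, MT1F, ZNF569, CCL2, CHAC1 and EGR1. The difference between the lines was an interaction contrast over the 8 libraries. The code was tested on simulated data, where most small changes were missed, large ones were nearly all found, and the share of false calls ran above the threshold, so single calls of small size are uncertain. Samples were grouped by their titles. Alternatives are given below.

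The set of genes and the gene lists were chosen with earlier results of these data known, so a list's direction is not independent evidence. Genes named by rule were APOBEC3B, RNASEH1 and CDC45, the 12 largest rises and 12 largest falls (called, no overlap, mean of at least 4 FPKM), the 8 most abundant called genes that moved by at least 1 on the log2 scale, up to 4 called genes of each list, and the 2 called genes with the largest change in each outlying chromosome window. Other genes were named from the lists as examples after their values were seen. Whether libraries of the same replicate number were handled together is not given. Same-numbered deviations had a correlation of -0.029 over genes, and with 2 pairs this cannot show that the libraries were unpaired. Positions are from GENCODE 44, which held 19005 of 19952 symbols, with 11327 tested genes placed in windows, and promoters are from RefSeq. No protein sequences were used here, and some genes that the rule names are not reported here.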

Additional observations from a re-analysis of the deposited data

Results flagged for a closer look

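The 24 genes named for the largest changes in MEL290 were set beside 92.1. They were chosen by the MEL290 libraries that the test uses again, so the count is a description: 21 of the 24 passed, against 5.57% of all genes, limma's test of the difference between A3B-high minus A3B-low cells of MEL290 and of 92.1, on the log2(FPKM + 1) scale. Of the 21, 19 are given here. For the genes that were higher in MEL290 on A3B overexpression the difference was 3.69 for MGMT, 2.54 for IL7R, 2.19 for GSTM2, 2.1 for CLDN11, 1.98 for C1R, 1.86 for NDRG1, 1.82 for CAV1, 1.8 for GLUL and 1.73 for TNNT1. For the genes that were lower it was -2.63 for C4orf48, -2.38 for ALPK2, -2.25 for KRTAP2-3, -2.07 for KRT16, -1.85 for CYBA, -1.84 for H2AC19, -1.76 for ADGRG1, -1.75 for ACTC1, -1.73 for KRT34 and -1.69 for TGFB2. The adjusted p-values from limma of these 19 genes ran from 0.0019 for MGMT to 0.023 for C4orf48.

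APOBEC3B (-0.39, adjusted p = 0.27), CPM (3.72, adjusted p = 0.12) and NRG1 (-1.31, adjusted p = 0.066) were not shown to differ between the lines by limma. In 92.1 the replicates of CPM were far apart, with 18.2 and 4.36 FPKM in shCtrl and 30.2 and 6.02 FPKM in shA3B. For genes listed at or near 0 in 92.1, the difference is that of MEL290 alone.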

How the results depend on the processing

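The number of genes changed by A3B OE in MEL290 was 2065 as reported and 1704 to 2500 with another pseudocount, a stricter filter, no trend, quantile or upper quartile scaling, all 8 libraries in one fit, or GC and length trends removed. It was 915 without the filter on low FPKM (555 higher, 360 lower, 818 of them shared with the 2065) and 314 with a minimum log2 fold change of 1. Leaving out 1 library gave 774 to 1944 calls, the lowest numbers, 774 and 902, without A3B OE replicate 2 and 1. With the GC and length trends removed 1220 genes were called higher and 1280 lower, so the higher share went from 57.9% to 48.8%. With the replicate number as a block there were 1521 calls, 1472 of them shared.

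The difference between the A3B effects in MEL290 and 92.1 was 707 genes as reported, 492 to 733 over the alternatives that kept every library without a block, 312 with the replicate block within each line, and 123 (without A3B OE replicate 2) to 413 (without shCtrl replicate 1) with 1 library left out. The causes were not tested. Of the 137 named genes 0 changed direction in any fit, and those that lost their call numbered 50 without the filter, 12 with the replicate block, 41 and 43 without A3B OE replicate 1 and 2, 10 and 12 without NC replicate 1 and 2, and 12 or fewer in each other fit. With 2 libraries per group, small changes of low genes lie within the spread, and a missing call does not show that a gene stayed the same.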

Other observations

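Further stress and signalling lists are given as values, beside shares over all genes tested of 10.3% higher and 7.49% lower. Of 18 tested NRF2 target genes 5 were called higher and 3 lower (2 and 0 without A3B OE replicate 1, 3 and 1 without NC replicate 2), with FTH1 at 0.96, HMOX1, heme oxygenase, at 0.76 and NQO1, a quinone reductase, at 0.69, against AKR1C3 at -0.91. Of 16 heat shock chaperone genes 4 were called higher, HSPA2 at 0.98 and HSPA1A at 0.67 among them, and 2 lower, HSPB1 at -0.40 among them, but 0 in either direction without A3B OE replicate 2 and 2 and 0 with the replicate block. Of 9 metallothionein genes 4 passed the filter and 3 were called higher, MT1F at 1.22, MT1E at 0.75 and MT2A at 0.60, with 0 called when the filter was left off, where MT2A, a metal-binding protein, was at 6840 and 6370 FPKM in NC and 10800 and 9320 FPKM in A3B OE. Of 16 aminoacyl-tRNA synthetase genes found, WARS1, which charges tryptophan tRNA, was at 160 and 150 FPKM in NC and 88.1 and 78.9 FPKM in A3B OE, a log2 fold change of -0.88, and 1 other was called, higher.

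Of 24 tested ATF4 stress response genes 4 were called in each direction, with PHGDH, the first enzyme of serine synthesis, at 1.08 and CHAC1, which degrades glutathione, at -0.65. The lower calls of this list were lost, with 0 left, under the replicate block, without the filter and without NC replicate 1 or either A3B OE replicate, and 1 was left without NC replicate 2, while the higher calls went to 1 without A3B OE replicate 1. The C/EBP-ATF element TTGCATCA stood in 1 of 21 promoters of this list (4.76%), that of CHAC1, against 0.67% of all promoters. Of 22 YAP/TAZ target genes 5 were called in each direction (2 higher and 4 lower without A3B OE replicate 1, 3 and 2 without replicate 2), with CCN2, a matricellular protein, at 148 and 164 FPKM in NC and 93.1 and 95.7 FPKM in A3B OE. Of 20 ERK pathway output genes 3 (15.0%) were called higher, PHLDA1 at 0.95 and FOSL1 at 0.66 among them, and 2 (10.0%) lower, EGR1 at -0.76 and MYC, at 121 FPKM in each NC library and 87.7 and 72.8 FPKM in A3B OE. Both ERK shares were close to those over all genes. Of 26 MYC-driven nucleolar genes 2 were called higher, FBL at 0.74 and NCL at 0.33, with a median of -0.01. Of 19 melanocyte genes 7 passed the filter, and RAB27A, which moves melanosomes, was called, at 8.89 and 9.19 FPKM in NC and 19.3 and 21.7 FPKM in A3B OE.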
